A study of Homo sapiens with 12 samples.

Results

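Gene expression of cells labelled as transfected with CD99 was set against that of their parental line before any differentiation medium was given, at day 0. Of the 12 arrays of the series, 4 entered this comparison as groups, the 2 titled Sa/CD99 (clones wt22 and wt36) and the 2 titled SaOS-2. The other 8 arrays did not enter the day 0 means. They entered the estimate of spread and the look at later days. They also helped to decide which genes were tested and which probe set stood for a gene. Genes were described when at least 4 of the 12 arrays had a signal over 100, which held for 18677 of 54675 probe sets and for 9731 of the 19775 genes that had a probe set of their own. At the edge of this floor, RBM26 was just inside (its 4th highest signal was 100.02) and ZC3H6 just outside (99.99).

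The parental line, SaOS-2, was established from a human osteosarcoma and keeps an osteoblast-like programme. The Sa/CD99 clones were derived from it by stable calcium phosphate transfection with CD99 and selection with neomycin, and all 4 day 0 samples shared the SaOS-2 background and the routine serum-containing medium. Total RNA of each sample went on 1 Affymetrix HG-U133 Plus 2.0 array. On later days, 7 and 14, the same 2 clones and the parental line had been kept in low-serum medium with ascorbic acid and beta-glycerophosphate. The clone group thus holds 1 array of each of 2 clones, so its spread is a spread between clones, and no mock-transfected or neomycin-selected control was analysed here, so transfected CD99, selection and clonal descent cannot be told apart. Separate cultures for the 2 parental arrays are not stated, so part or all of the spread between them may be technical. The p-values rest on a spread pooled over both lines and all days, not on the parental arrays alone. The same 2 clones enter this pooled spread on each day. Their differences correlated between days across probe sets (r = 0.55 for days 0 and 7, 0.31 for 0 and 14, 0.61 for 7 and 14). The fit treated the arrays as independent, so the p-values do not allow for this.

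CD99 itself was read by 2 probe sets at day 0. The dimmer one had log2 signals of 6.67 in wt22 and 6.73 in wt36, against 11.34 and 11.26 in SaOS-2 (log2 difference -4.60, SE 0.43, limma adjusted p = 0.00299), which goes against the label of the clones. The brighter one had 12.33 and 12.32 in the clones, against 12.31 and 12.29 in SaOS-2 (0.03, adjusted p = 0.95). Neither probe set was called higher in the arrays labelled Sa/CD99, and the dimmer one was called lower. The brighter one lay slightly above both parental arrays in each clone. No source used here says whether the transfected sequence holds the bases that either one reads. The cause of the lower signal was not tested. The study reports that it verified CD99 expression with real-time PCR in every profiled sample, before and during differentiation. Those measurements were not analysed here. All directions below are therefore those of the labels. CD99L2, the paralog of CD99, had a difference of 0.05 (adjusted p = 0.939).

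CD99 is a small glycoprotein of the cell surface that takes part in cell adhesion and migration, and in bone tumours its presence or absence goes with the state of differentiation. Osteoblasts arise from mesenchymal cells under transcription factors such as RUNX2 and SP7, lay down type I collagen, and mineralise it with the help of alkaline phosphatase. Signals of the TGF-beta, BMP, Notch and Wnt families, the AKT kinase and contacts through cadherins set how far this programme goes. Expression of osteoblast genes was present in the data: 9 of 10 measured osteoblast markers passed the signal floor, RUNX2 among them at 11.74 and 11.48 in the clones and at 11.69 and 11.72 in SaOS-2. Of the defining markers of other cell types, 2 of 11 epithelial genes passed the floor (EPCAM and KRT18), as did 1 of 8 blood cell genes, 1 of 7 cartilage, 1 of 7 fat cell and 1 of 10 neuronal genes, and 0 of 8 endothelial ones, and none of them was called. KRT18, a keratin, differed between the clones (8.17 in wt22 and 9.89 in wt36, against 8.75 and 8.64 in SaOS-2). The summed signal of the 11 epithelial genes was 821 to 1490 in the clones and 991 to 1032 in SaOS-2.

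The day 0 difference was mainly one of lower signals in the clones. Calls required an adjusted p of at most 0.05 (limma, Benjamini-Hochberg), a change of at least 1.5-fold, and that both clones lay on the same side of both parental arrays. By this rule 175 probe sets (0.937% of those tested) were called, 166 lower and 9 higher, or 72 genes (0.74%), of which 63 were lower (0.647%) and 9 higher (0.0925%). All 175 probe sets that passed the thresholds also met the demand that the clones agree, and no gene was removed by it. Of the 72 genes 32 had more than 1 tested probe set, and in 13 of these all were called. Over all 9731 genes the balance was different: both clones lay below both parental arrays in 18.7% of genes and above both in 21.2%, and the median difference was 0.01. Of the 63 lower genes, 7 were at least 4-fold lower, 14 were between 2-fold and 4-fold lower and 42 were less than 2-fold lower. In these bulk RNA samples, fewer cells that express a gene and less RNA per cell cannot be told apart.

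**Figure D1:**
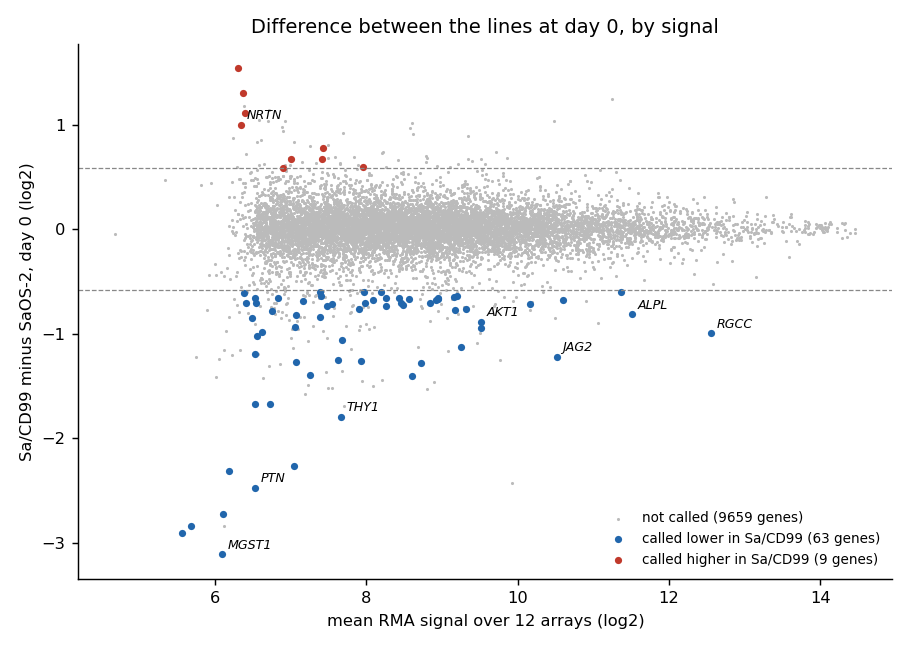
Difference between the arrays labelled Sa/CD99 and SaOS-2 at day 0 (vertical axis, log2) against the mean RMA signal over the 12 arrays (horizontal axis, log2), 1 point per gene. Red points are the 9 genes called higher, blue points the 63 called lower, grey points the genes not called, and dashed lines mark 1.5-fold. Blue points reach down to -3.11 (MGST1) whereas red points end at 1.54.

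Counts rested on both parental arrays. Without SaOS-2 day 0 array 1 the count was 7 probe sets and 2 genes (TOX3 and JAM2), and without array 2 it was 8 probe sets and 3 genes (TOX3, JAM2 and GJB2). Without wt22, 96 genes were called and 45 of the 72 remained, and without wt36, 56 were called and 35 of the 72 remained. Every called gene named below apart from TOX3 and JAM2 lost its call in at least 1 of these 4 fits, and none changed direction.

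Among the probe sets that stand for a gene, the most negative log2 difference was that of MGST1, a membrane-bound enzyme that conjugates glutathione to reactive molecules. It had 4.06 in wt22 and 4.38 in wt36, against 7.38 and 7.29 in SaOS-2, so that the clones lay far below both parental arrays (log2 difference -3.11, SE 0.29, adjusted p = 0.00299). The clone values lay under the signal floor and under the median of an array, so the size of this difference rests on a dim signal and no fold is given. GPX1, the cytosolic glutathione peroxidase that removes hydrogen peroxide, had 6.87 in wt22 and 5.81 in wt36, against 8.61 and 8.60 in SaOS-2 (-2.26, SE 0.32, adjusted p = 0.0141). Both clones lay below the parental arrays here too, wt36 by more than wt22. These were the only 2 calls (both lower) among 32 tested genes of glutathione and peroxide metabolism, a list whose median was 0.01, the same as over all genes. Of all genes, 0.647% were called lower. This and the other lists were made with earlier results of these data known, so their counts of calls only describe their members. GPX3, a secreted peroxidase, was at 5.31 in wt22 and 8.06 in wt36, against 8.28 and 8.24 in SaOS-2 (adjusted p = 0.604). Its low value thus belonged to wt22 alone. GCLC and GCLM, which make glutathione, had 0.05 and 0.01, and the peroxiredoxins PRDX1 to PRDX4 and PRDX6 lay between -0.16 and 0.19.

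Promoters are shown for the lower genes MGST1 and PTN and for the higher genes APELA and AOX1, the 2 largest differences in each direction with an entry in the RefSeq promoter table (GRCh38.p14). Each is the 250 bases before the annotated gene start, 5′ to 3′ on the strand of the gene, with CG dinucleotides in capitals, the sites where DNA can be methylated. MGST1 is read from chr12:16347395-16347644 (plus strand), PTN from chr7:137343734-137343983 (minus strand), APELA from chr4:164876928-164877177 (plus strand) and AOX1 from chr2:200585764-200586013 (plus strand).
MGST1: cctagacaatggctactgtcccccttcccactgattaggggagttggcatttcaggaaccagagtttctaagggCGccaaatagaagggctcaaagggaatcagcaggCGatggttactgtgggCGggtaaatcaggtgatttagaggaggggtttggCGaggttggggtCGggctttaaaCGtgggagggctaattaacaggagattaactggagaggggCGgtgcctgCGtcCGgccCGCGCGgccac
PTN: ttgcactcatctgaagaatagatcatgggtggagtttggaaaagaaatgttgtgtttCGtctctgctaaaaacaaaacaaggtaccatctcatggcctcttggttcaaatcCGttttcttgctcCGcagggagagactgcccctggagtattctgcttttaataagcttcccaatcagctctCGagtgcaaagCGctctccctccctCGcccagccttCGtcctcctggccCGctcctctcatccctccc
APELA: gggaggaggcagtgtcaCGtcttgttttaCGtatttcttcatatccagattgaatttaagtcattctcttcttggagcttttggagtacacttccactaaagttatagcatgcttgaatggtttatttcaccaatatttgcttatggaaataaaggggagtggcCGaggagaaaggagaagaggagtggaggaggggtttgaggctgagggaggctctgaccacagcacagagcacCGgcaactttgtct
AOX1: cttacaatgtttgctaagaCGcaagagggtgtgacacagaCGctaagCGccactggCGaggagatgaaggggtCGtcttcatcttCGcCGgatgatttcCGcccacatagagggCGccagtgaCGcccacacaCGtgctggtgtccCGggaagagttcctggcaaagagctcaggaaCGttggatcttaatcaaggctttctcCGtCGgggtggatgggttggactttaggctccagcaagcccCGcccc
These windows held 12 CG dinucleotides in MGST1, 8 in PTN, 4 in APELA and 16 in AOX1, and that of NRTN, the next higher gene with an entry, held 31. The median was 22 over the 8156 tested genes with an entry, 25 over 49 of the 63 lower genes and 23.5 over 4 of the 9 higher genes, and the 2 medians of called genes lay inside the interquartile range of all windows (15 to 29). The E-box CACCTG, the motif of SNAI1 and related zinc finger repressors, was searched on both strands and was present in 8 of the 49 lower genes (16.3%), against 14.2% of all windows. Of the windows shown MGST1 carried it. The letters TATAAA, also searched on both strands, were in 0 of the 49 and in 4.83% of all windows. Such a match is a description of letters and not of a bound site.

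Several of the largest differences were in genes of the cell surface and of cell contacts. JAM2, an adhesion molecule of tight junctions, had 4.25 and 4.62 in the clones, against 7.33 and 7.22 in SaOS-2 (-2.84, SE 0.22, adjusted p = 0.00149). This was the call that held under all 28 alternatives tried for it. THY1 (CD90), a surface protein of mesenchymal stromal cells, had 6.52 and 6.64 in the clones, against 8.37 and 8.38 in SaOS-2 (-1.80, SE 0.17, adjusted p = 0.0031), and its 3 probe sets were all called. CDH2, the N-cadherin of osteoblasts, had 7.17 and 7.70 in the clones, against 8.70 in each SaOS-2 array (-1.26, SE 0.22, adjusted p = 0.032), with 1 of its 2 probe sets called. In each of these genes both clones lay below both parental arrays, as the call requires. They were 3 lower calls among 17 adhesion and junction genes (median -0.09, and 0.647% of all genes were called lower). The cadherin CDH11 (-0.10), the gap junction protein GJA1 (-0.14), CD44 (-0.09) and ALCAM (0.20) did not pass.

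Outside that list, DSG2, a desmosomal cadherin, had 8.13 and 8.32 in the clones, against 9.48 and 9.53 in SaOS-2 (-1.28, adjusted p = 0.0164). GJB2, which encodes connexin 26, had 4.59 and 4.79 in the clones, against 6.15 and 5.78 in SaOS-2 (-1.27, adjusted p = 0.00741), and all 4 values lay below the signal floor of 6.64. CXADR, a receptor of coxsackie and adenoviruses found at cell junctions, was lower as well (-0.72), a gene outside the naming rule that was picked after its value was seen. Of the integrins, 0 of 11 were called by limma, with a median of -0.05. Of 18 genes of collagens and basement membrane 1 was lower, the laminin chain LAMA4, at 5.55 and 5.21 in the clones and at 6.55 and 6.72 in SaOS-2 (-1.25, SE 0.15, adjusted p = 0.00825), with 1 of its 3 probe sets called. The median of that list was -0.25, and 10 of its 18 genes had both clones below both parental arrays (18.7% of all genes did). Of all genes, 0.647% were called lower.

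**Figure D2:**
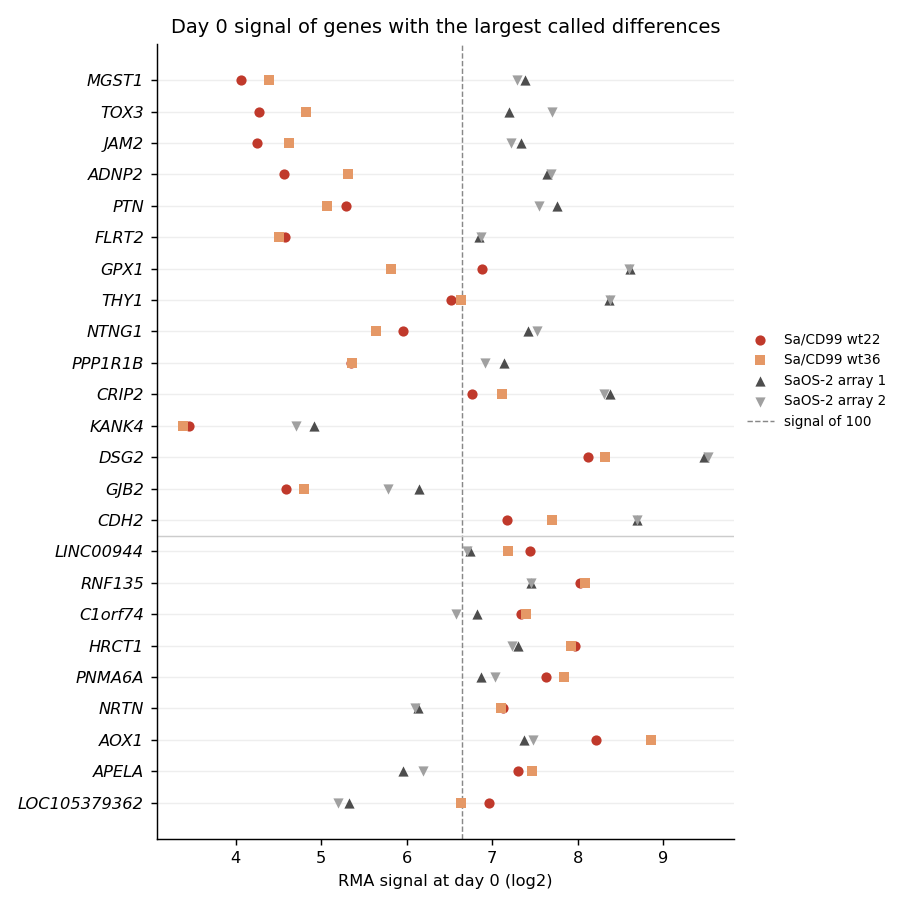
RMA signal at day 0 (horizontal axis, log2) of the 15 genes with the largest negative and the 9 with a positive called difference, 1 row per gene. Red circles are Sa/CD99 wt22, orange squares Sa/CD99 wt36, and dark and light triangles the 2 SaOS-2 arrays, and the dashed line marks a signal of 100. In every row both clone points lie on 1 side of both triangles, and in MGST1, TOX3, JAM2, ADNP2, PTN and FLRT2, among others, the clones fall below the dashed line while SaOS-2 lies above it.

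Axon guidance and growth factor genes made up a further group. FLRT2, a surface protein with leucine-rich repeats that repels UNC5 receptors, had 4.57 and 4.51 in the clones, against 6.84 and 6.87 in SaOS-2 (-2.31, SE 0.25, adjusted p = 0.00741). NTNG1, a membrane-anchored netrin, had 5.96 and 5.64 in the clones, against 7.42 and 7.52 in SaOS-2 (-1.67, SE 0.19, adjusted p = 0.00778). These were 2 lower calls among 26 axon guidance genes (median -0.17, and 0.647% of all genes were called lower), and 14 of the 26 had both clones below both parental arrays (18.7% of all genes did). The Slit receptors ROBO1 and ROBO2 had -0.38 and -1.05 and the semaphorin co-receptor NRP1 had -0.43, none of them called.

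PTN, the secreted heparin-binding factor pleiotrophin, which acts on bone and nerve cells, had 5.29 and 5.06 in the clones, against 7.75 and 7.55 in SaOS-2 (-2.48, SE 0.39, adjusted p = 0.0222), and its 3 probe sets were all called. Its relative midkine, MDK, had 9.37 in wt22 and 6.001 in wt36, against 8.79 and 8.83 in SaOS-2, and was not called (adjusted p = 0.877). Pleiotrophin was thus low in both clones and midkine in wt36 alone. IGFBP5, an abundant binding protein of insulin-like growth factors in bone, had 7.66 and 7.48 in the clones, against 8.25 and 8.32 in SaOS-2 (-0.72, SE 0.11, adjusted p = 0.0172). In the opposite direction, NRTN, which encodes the neurotrophic factor neurturin, had 7.13 and 7.11 in the clones, against 6.13 and 6.10 in SaOS-2 (1.002, SE 0.12, adjusted p = 0.0081). Of 24 growth factor genes 2 were lower and 1 higher (0.647% and 0.0925% of all genes were), with a median of -0.05.

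Among nuclear factors, TOX3, an HMG-box protein, had 4.27 and 4.82 in the clones, against 7.20 and 7.70 in SaOS-2 (-2.90, SE 0.25, adjusted p = 0.00274). ADNP2, a homeobox zinc finger protein, had 4.56 and 5.31 in the clones, against 7.65 and 7.69 in SaOS-2 (-2.73, SE 0.28, adjusted p = 0.00448). In both genes the clones lay near or below the median of an array (5.25 to 5.31 over the 12 arrays) and the parental arrays well above it. SNAI1, the repressor of E-cadherin, had 6.58 and 6.50 in the clones, against 7.26 and 7.09 in SaOS-2 (-0.64, SE 0.10, adjusted p = 0.0179). It was the only call among 9 transcription factors and companions of epithelial-mesenchymal transition (median -0.20, and 0.647% of all genes were called lower). In this list SNAI2 had -0.20, ZEB1 0.15 and VIM, the intermediate filament vimentin, -0.14. CDH1, the E-cadherin that SNAI1 represses, did not pass the floor, at 3.83 and 3.78 in the clones and at 3.41 and 3.61 in SaOS-2.

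Of the osteoblast programme, DLX3, a homeobox factor of bone and tooth formation, was lower, at 7.08 and 6.82 in the clones and at 8.13 and 8.16 in SaOS-2 (-1.20, SE 0.16, adjusted p = 0.0121). It was 1 lower call of 14 osteoblast transcription factors (median -0.10, and 0.647% of all genes were called lower). SP7 (osterix) had 8.31 and 7.86 in the clones, against 8.73 and 8.67 in SaOS-2, a difference of -0.61 that was not called (SE 0.28, adjusted p = 0.464) although the groups did not overlap. RUNX2 had -0.09 (adjusted p = 0.827). ALPL, the alkaline phosphatase of mineralising cells, had 10.66 and 10.85 in the clones, against 11.56 and 11.58 in SaOS-2 (-0.82, SE 0.14, adjusted p = 0.0336), and both of its probe sets were called. It was 1 lower call of 11 genes of bone matrix and mineralisation (median 0.01), against 0.647% of all genes. COL1A1 had 13.27 and 13.07 in the clones, against 12.86 and 13.16 in SaOS-2 (0.16, adjusted p = 0.853), so its groups overlapped. The other chain of type I collagen, COL1A2, had 12.21 in wt22 and 11.12 in wt36, against 10.45 and 10.37 in SaOS-2 (1.25, SE 1.06, adjusted p = 0.761). It lay more than 1.5-fold above the parental mean in each clone without passing the test.

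In TGF-beta and BMP signalling 3 of 36 genes were lower and 0 higher, against 0.647% lower among all genes. SMAD4, the common partner of receptor-activated SMADs, had 8.79 and 8.66 in the clones, against 9.42 and 9.36 in SaOS-2 (-0.67, SE 0.11, adjusted p = 0.0244). SMAD2, which carries TGF-beta signals, had 8.62 and 8.70 in the clones, against 9.25 and 9.37 in SaOS-2 (-0.65, SE 0.09, adjusted p = 0.0142), with 3 of 4 probe sets called. NEDD4L, a ubiquitin ligase that turns over activated SMADs, had 7.44 and 7.54 in the clones, against 8.30 and 8.09 in SaOS-2 (-0.71, SE 0.11, adjusted p = 0.0225), with 1 of its 3 probe sets called. All 3 lie on chromosome arm 18q, described below, as does the inhibitory SMAD7, which had -0.46 and was not called. Of the members elsewhere in the genome, BAMBI, a decoy receptor outside the naming rule, came closest with -0.59 (SE 0.13, adjusted p = 0.0732), followed by ID1, a target of BMP signals, with -0.51 (SE 0.11, adjusted p = 0.0754). The genes SMAD3 (-0.12), SMAD1 (-0.26) and the receptors TGFBR1 (-0.23) and TGFBR2 (0.15) did not pass. The median of the list was -0.14, and 17 of its 36 genes had both clones below both parental arrays, against 18.7% of all genes.

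AKT1, the serine-threonine kinase of survival signalling, had 8.89 and 9.12 in the clones, against 9.95 and 9.82 in SaOS-2 (-0.88, SE 0.10, adjusted p = 0.00778). It was the only call of 29 genes of AKT and PI3 kinase signalling (median -0.07), and AKT2 had 0.19. PIK3C3, a class III PI3 kinase, passed the p-value threshold (adjusted p = 0.0331) but its difference of -0.58 lay just short of 1.5-fold. In Notch signalling 2 of 12 genes were lower (median -0.12, and 0.647% of all genes were called lower). The ligand JAG2 had 9.94 and 10.13 in the clones, against 11.32 and 11.19 in SaOS-2 (-1.22, SE 0.14, adjusted p = 0.00778), and the target HEY2 had 6.31 and 6.16 in the clones, against 7.34 and 7.18 in SaOS-2 (-1.02, SE 0.13, adjusted p = 0.00825). JAG1 had -0.52, and the receptors NOTCH1 and NOTCH2 had 0.06 and 0.02. Of 21 genes in the Wnt list 1 was lower (median -0.04), TCF4. This gene of 18q encodes an E protein and not the Wnt effector of the same alias, TCF7L2 (-0.25). TCF4 had 8.62 and 8.45 in the clones, against 9.23 and 9.25 in SaOS-2 (-0.71, SE 0.11, adjusted p = 0.0166), with 5 of 7 probe sets called.

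Of 42 genes of the cell cycle and DNA replication 1 was called lower, against 0.647% of all genes. This was CDKN1C, the imprinted inhibitor p57 of cyclin-dependent kinases, at 5.97 and 5.64 in the clones and at 6.79 and 6.69 in SaOS-2 (-0.93, SE 0.17, adjusted p = 0.0439). Proliferation genes lay near 0, with MKI67 at -0.06 and PCNA at 0.05 (list median -0.02). Of 30 apoptosis genes 1 was called lower (median 0.02), against the same 0.647% of all genes. This was BAG5, a co-chaperone of HSP70, at 8.92 and 8.86 in the clones and at 9.57 and 9.48 in SaOS-2 (-0.64, SE 0.08, adjusted p = 0.00825). Its 3 probe sets were all called. The remaining large differences belonged to no list. PPP1R1B, a regulator of protein phosphatase 1, had 5.35 and 5.36 in the clones, against 7.13 and 6.91 in SaOS-2 (-1.67, adjusted p = 0.046). CRIP2, a LIM domain protein, had 6.76 and 7.11 in the clones, against 8.37 and 8.30 in SaOS-2 (-1.40, adjusted p = 0.0151). KANK4, of a family that controls actin and focal adhesions, had 3.45 and 3.38 in the clones, against 4.92 and 4.71 in SaOS-2 (-1.40, adjusted p = 0.0244). All 4 KANK4 values lay below the floor, as they did for 5 of the 72 called genes, and in 16 of the 63 lower genes both clones lay below it and both parental arrays above.

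The 9 higher genes had smaller differences. The largest was that of an uncharacterised locus, LOC105379362, at 6.96 and 6.63 in the clones and at 5.32 and 5.19 in SaOS-2 (1.54, SE 0.28, adjusted p = 0.0368). APELA, a peptide hormone of the apelin receptor, had 7.30 and 7.47 in the clones, against 5.96 and 6.19 in SaOS-2 (1.31, SE 0.25, adjusted p = 0.0491), and its call was lost in 14 of 28 alternatives. AOX1, an aldehyde oxidase, had 8.22 in wt22 and 8.86 in wt36, against 7.37 and 7.47 in SaOS-2 (1.11, SE 0.19, adjusted p = 0.032). With NRTN these were the 4 genes at least 2-fold higher. PNMA6A, of a gene family derived from retrotransposons, had 0.78 (adjusted p = 0.0225). HRCT1, a small histidine-rich protein, had 0.68 (adjusted p = 0.0137), and C1orf74 had 0.67 (adjusted p = 0.0208). RNF135, a ubiquitin ligase of antiviral RNA sensing, had 0.60 (adjusted p = 0.0368), and the long non-coding RNA LINC00944 had 0.59 (adjusted p = 0.0289). None of the 9 passed a test against a change of 1.5-fold itself (limma treat), which 5 lower genes passed: MGST1, TOX3, JAM2, ADNP2 and THY1.

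Of the 22 lists 8 had no called gene by limma. They were integrins, ERK and AP-1 (17 genes, median 0.08), interferon response and antigen presentation (26, 0.10), cytokines and their receptors (19, 0.10), the secretory pathway (28, 0.00), sterol and fatty acid synthesis (23, 0.02), glycolysis and hypoxia (27, -0.01) and contractile genes of embryonic and smooth muscle (13, 0.31). The muscle list had the highest median (0.12 in wt22 and 0.34 in wt36), with both clones above both parental arrays in 8 of 13 genes (21.2% of all genes). Its signal was also summed over all 25 members on the array, including those under the floor. The sum was 46322 and 46489 in the clones, against 38213 and 38563 in SaOS-2. The highest member, the calponin CNN1, had 0.70 and was not called. In the interferon list both clones lay above both parental arrays in 15 of 26 genes, with IFIT1 at 0.50 and the immunoproteasome subunit PSMB9 at 0.49. Of the 18677 tested probe sets, 2160 had an unadjusted p below 0.05 in limma.

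The clones differed from each other more than the parental arrays did. Across the 18677 tested probe sets, which are not independent replicates, the clones correlated with r = 0.977 and the parental arrays with r = 0.997. Over the same probe sets, differences between the clones had an SD of 0.34, against 0.13 for differences between the parental arrays. In 155 genes the clones lay at least 2-fold apart, in 84 of them with wt22 above wt36 and in 71 with wt36 above wt22, whereas this held for 0 genes in the parental pair. Relative to the parental mean, 99 genes were at least 1.5-fold lower in each clone and 26 at least 1.5-fold higher in each. The test called 51 of the 99 and 7 of the 26. Over the 72 called genes, the clones lay 0.19 apart at the median and at most 1.06 (GPX1), and over all tested genes 0.17 at the median.

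**Figure D3:**
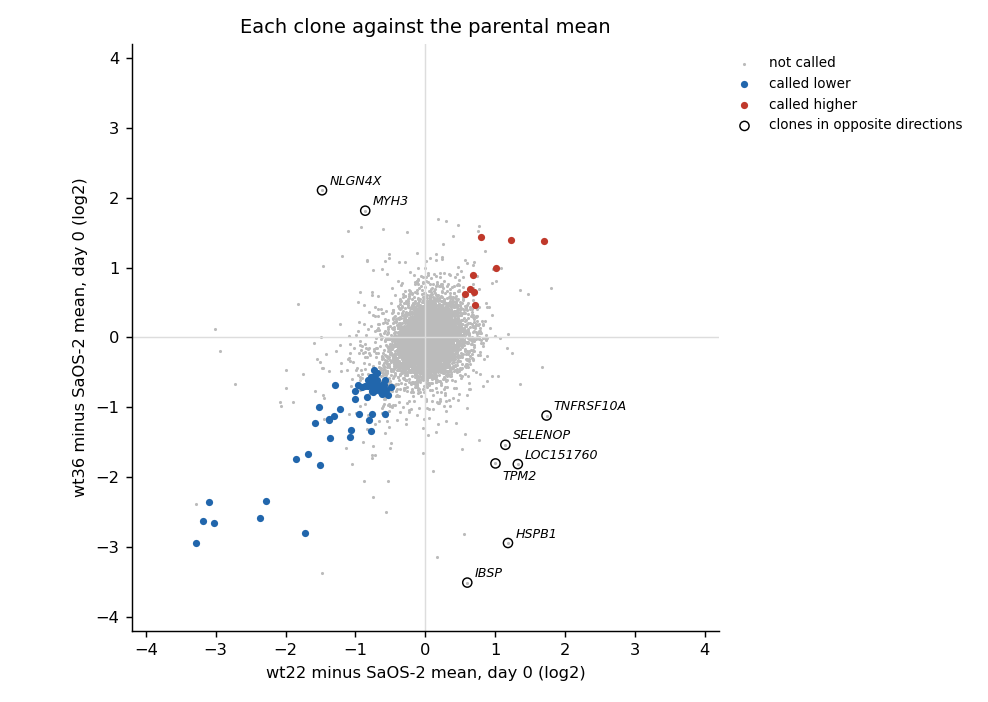
Difference of clone wt22 (horizontal axis, log2) and of clone wt36 (vertical axis, log2) from the mean of the 2 SaOS-2 arrays at day 0, 1 point per gene. Blue and red points are genes called lower and higher, circled points the 8 named genes with the clones in opposite directions. Blue points reach from about the 1.5-fold threshold down to MGST1, while HSPB1 and IBSP lie far below 0 in wt36 and above 0 in wt22.

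Genes more than 1.5-fold from the parental mean in both clones that were not called included NPTX2, a secreted pentraxin of synapses, at 3.70 in wt22 and 4.60 in wt36, against 7.09 and 6.88 in SaOS-2 (-2.84, SE 0.76, adjusted p = 0.143). COL11A1, a fibrillar collagen of cartilage, had 10.16 in wt22 and 8.26 in wt36, against 11.66 and 11.61 in SaOS-2 (-2.42, SE 1.40, adjusted p = 0.601). TNFRSF9, a co-stimulatory receptor, had 9.01 and 9.03 in the clones, against 7.99 and 8.10 in SaOS-2 (0.97, SE 0.20, adjusted p = 0.0595). These 3 genes were chosen after their values were seen. The SE here pools the spread of all 6 groups, so that a gene with close clones at day 0, such as TNFRSF9, can still have a wide one.

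In 30 genes 1 clone lay at least 1.5-fold above the parental mean and the other at least 1.5-fold below it. HSPB1, a small heat shock protein, had 10.00 in wt22 and 5.88 in wt36, against 8.78 and 8.86 in SaOS-2. IBSP, the bone sialoprotein of mineralising matrix, had 7.37 in wt22 and 3.26 in wt36, against 6.70 and 6.84 in SaOS-2. NLGN4X, a neuroligin of synapses, showed the opposite order, with 6.47 in wt22 and 10.06 in wt36, against 7.95 in each SaOS-2 array. The means over the clones hide these differences: they gave -0.88 for HSPB1, -1.45 for IBSP and 0.31 for NLGN4X, with adjusted p of 0.903, 0.815 and 0.979. TPM2, a tropomyosin of the muscle list, had 12.61 in wt22 and 9.80 in wt36, against 11.60 and 11.62 in SaOS-2. TNFRSF10A, a death receptor for TRAIL, had 7.69 in wt22 and 4.84 in wt36, against 5.84 and 6.08 in SaOS-2. SELENOP, a selenium carrier, and the locus LOC151760 were also higher in value in wt22 than in wt36, by 2.68 and 3.14, and MYH3, the embryonic myosin heavy chain, had -2.67 for wt22 minus wt36. At days 7 and 14 the clone difference kept its sign in 7 of these 8 genes, SELENOP being the exception (1.90 and -0.44). For MYH3 it shrank to -0.32 and -0.53.

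The called genes were spread unevenly over the genome. Chromosome arms were assigned from the RefSeq annotation of GRCh38.p14. Of the 63 lower genes, 35 (55.6%) lay on 18q (21 genes) or 14q (14 genes), which together held 420 of 9717 tested genes with an arm (4.32%). On 18q 21 of 89 genes (23.6%) were called, all lower, against 0.647% of all genes. The median difference over all 89 genes was -0.55, with -0.55 in wt22 and -0.54 in wt36, and both clones lay below both parental arrays in 80.9% of them, against 18.7% of all genes. Outside these arms 28 of 9297 genes (0.301%) were called lower, and their median difference was 0.02. Neighbouring genes are not independent of each other.

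The 18q genes with the largest differences were ADNP2, DSG2 and CDH2, given above, and GALNT1, a glycosyltransferase that starts O-linked sugar chains. GALNT1 had 8.92 and 9.12 in the clones, against 10.12 and 10.17 in SaOS-2 (-1.12, SE 0.10, adjusted p = 0.00299), and all 4 of its probe sets were called. TIMM21, a mitochondrial import subunit, had 9.002 and 8.97 in the clones, against 9.78 and 9.74 in SaOS-2 (-0.77, adjusted p = 0.0153). ZNF532, a zinc finger protein, had 7.41 and 7.52 in the clones, against 8.30 and 8.14 in SaOS-2 (-0.76, adjusted p = 0.01). Apart from the first 4, the called 18q genes lay between -0.77 (TIMM21) and -0.60 (FECH, the ferrochelatase of haem synthesis, a gene outside the naming rule). The 1.5-fold threshold and the setting aside of those 4 bound this range. The 18q genes that were not called ran from -1.70 (LIPG) to 0.29 (CYB5A), both outside the naming rule. On the short arm of the same chromosome 1 of 41 genes was called lower, against 0.647% of all genes. It was COLEC12, a collectin outside the naming rule (-1.06), and the median of that arm was -0.01.

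On 14q the lower genes were at the far end. Ordered along the arm, the 331 tested genes held FLRT2 at place 242 and the other 13 called genes between places 284 and 329. From place 284 to the end of the arm, 13 of 48 genes were called lower, against 0.647% of all genes. In this stretch the median was -0.49 (-0.54 in wt22 and -0.44 in wt36) and 43 of 48 had both clones below both parental arrays. Over the 283 genes before it the median was -0.10, and 117 of the 283 had both clones below both parental arrays, also a larger share than the 18.7% of all genes. The border was drawn from the called genes themselves and is a description. AKT1, JAG2, CRIP2, MTA1 and BEGAIN lie in this distal stretch, as does BAG5. MTA1, a subunit of a chromatin remodelling and deacetylase complex, had 8.77 and 8.89 in the clones, against 9.81 and 9.75 in SaOS-2 (-0.94, SE 0.12, adjusted p = 0.00825). BEGAIN, a protein of synapses, had 5.46 and 6.08 in the clones, against 6.89 and 6.62 in SaOS-2 (-0.99, SE 0.18, adjusted p = 0.0374).

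Smaller shifts were present on other arms. On 1q the median was 0.14 in wt22 and 0.19 in wt36, and both clones lay above both parental arrays in 58.3% of 427 genes (21.2% of all genes). On 7q it was 0.08 and 0.09, with 39.6% of 308 genes above. On 8p the median was 0.50 in wt22 and 0.00 in wt36, with 1 of 104 genes called (LOC105379362, higher), against 0.0925% of all genes called higher. On 10p it was -0.09 in wt22 and -0.33 in wt36, with 0 of 79 genes called by limma and 54.4% of them below both parental arrays in both clones. These medians are given without a test.

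**Figure D4:**
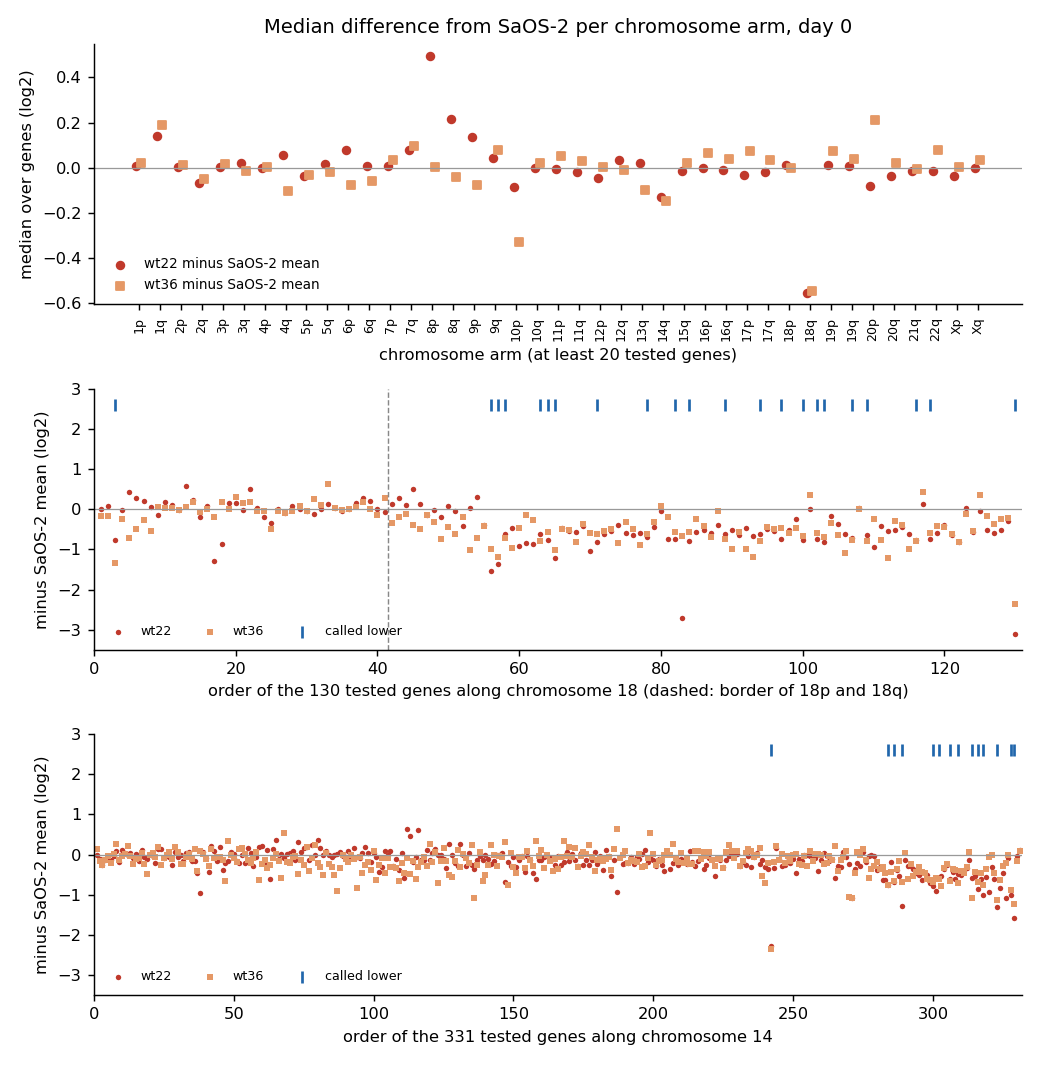
Top, median difference from the SaOS-2 mean at day 0 (vertical axis, log2) for each chromosome arm with at least 20 tested genes, red circles for clone wt22 and orange squares for clone wt36. Middle and bottom, the same difference for single genes in their order along chromosomes 18 and 14, with blue ticks over genes called lower. Both clones sit near -0.55 on 18q and drop towards the end of 14q, while 8p and 10p differ between the clones.

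A further 29 genes were called only through a probe set with a lower mean signal than the one that stands for the gene, all of them lower. CD99, given above, was among them. Examples picked after their values were seen were TRA2A, a splicing factor (-0.91 and -0.60 with 2 probe sets), and QKI, an RNA-binding protein (-0.64). PPP2R5C, a regulatory subunit of protein phosphatase 2A on 14q, had -1.34 with such a probe set (adjusted p = 0.0106) and -0.45 with its brightest one (adjusted p = 0.372). Transcript forms were not resolved here. Of the called probe sets 40 had no gene in the annotation, all of them lower, which is 22.9% of the called against 7.07% of the tested probe sets. The difference between 3′ and 5′ control probe sets of GAPDH was 0.07 and 0.20 in the clones and 0.10 and 0.08 in SaOS-2, and that of ACTB 0.19 and 0.13 in the clones and 0.11 and 0.22 in SaOS-2. These signs of RNA quality overlapped between the groups.

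The same lines were then read on days 7 and 14 in differentiation medium, on arrays that did not enter the day 0 means but came from the same clones. These arrays did enter the estimate of spread, which each probe set shares across the days. Calls on later days are therefore not independent of those at day 0. Of the 63 genes lower at day 0, 61 were below SaOS-2 at day 7 and 60 at day 14. At day 7, 38 of the 63 were called lower, against 0.873% of all genes, and at day 14 43 of the 63, against 0.987%. The calls held on both days for 33 genes and on neither for 15, and the medians on days 0, 7 and 14 were -0.77, -0.73 and -0.74. Of the 9 higher genes all 9 were above SaOS-2 on both days, 5 were called higher at day 7 (0.38% of all genes were) and 1 at day 14 (0.123%). That gene was NRTN, with 1.26 at day 7 and 1.27 at day 14, whereas AOX1 had 0.39 and 0.03.

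The change of the line difference between days was tested as an interaction. For the representative probe sets, 0 of 9731 genes (0%) passed for day 7 and 0 (0%) for day 14. Of all tested probe sets, 871 (4.66%) and 692 (3.71%) had an unadjusted p below 0.05, and 0 and 2 passed after adjustment. Those 2 were the second probe set of MGST1, with a difference of -2.72 at day 0 and -4.30 at day 14 (interaction adjusted p = 0.0286), and a probe set of PLXDC1, a plexin domain receptor, with 0.08 at day 0 and -1.93 at day 14 (interaction adjusted p = 0.0185). The brighter MGST1 probe set gave -4.45 at day 7 and -4.55 at day 14. Its values in the clones were 3.95 and 3.93 at day 7 and 3.49 and 4.62 at day 14, against 8.43 and 8.36 in SaOS-2 at day 7 and 8.70 and 8.51 at day 14.

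**Figure D5:**
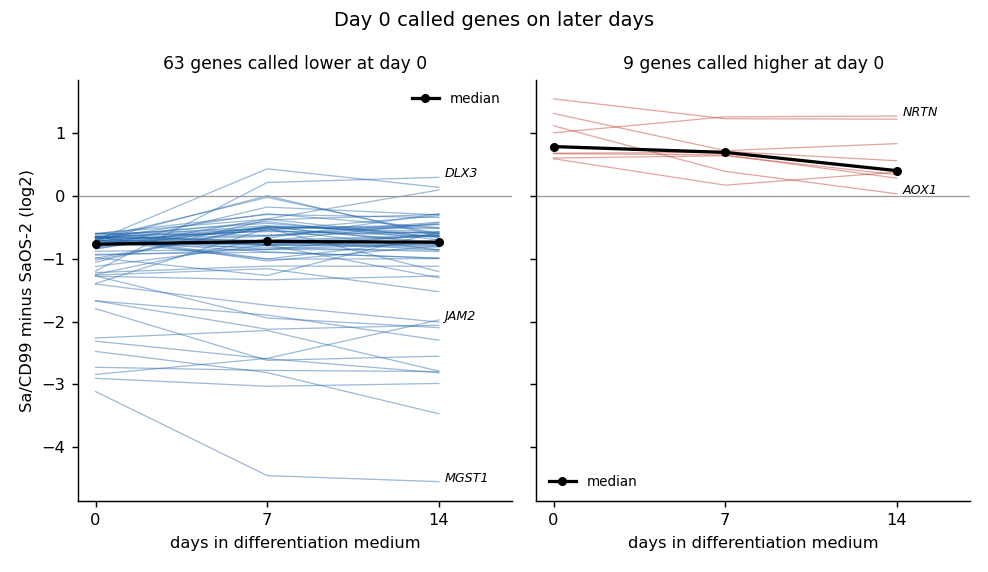
Difference between the arrays labelled Sa/CD99 and SaOS-2 (vertical axis, log2) at days 0, 7 and 14 (horizontal axis) for the 63 genes called lower at day 0 (left) and the 9 called higher (right), 1 thin line per gene, with the median in black. The median of the lower genes stays between -0.77 and -0.73. DLX3 crosses 0, with its signals of days 7 and 14 below the floor. The higher genes approach 0 apart from a few such as NRTN.

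The lower genes that changed sign later were DLX3, PPFIBP2 and, at day 14 only, GTF2H2B. DLX3 had 6.18 and 5.88 in the clones at day 7, against 5.91 and 5.72 in SaOS-2. At day 14 it had 6.24 and 6.25 in the clones, against 5.73 and 6.17 in SaOS-2. Both lines were thus lower in value on later days than at day 0, SaOS-2 by more (interaction adjusted p = 0.376 and 0.328). PPFIBP2, a liprin of cell adhesion sites, had -0.71 at day 0, 0.43 at day 7 and 0.13 at day 14 (interaction adjusted p = 0.0918 and 0.264). Its day 0 values all lay below the floor, at 5.44 and 5.42 in the clones and at 6.20 and 6.09 in SaOS-2. LAMA4 had a difference of -0.68 at day 7 and -0.29 at day 14, and ALPL one of -0.51 and -0.52. For THY1 it was -2.62 at day 7 and -2.55 at day 14. SMAD2 (-0.79 and -0.82) and AKT1 (-0.85 and -0.76) stayed near their day 0 values.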

How the data were processed

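Total RNA of 12 samples was hybridised to Affymetrix HG-U133 Plus 2.0 arrays, 1 per sample. The deposited values are RMA signals on the log2 scale, for which the authors subtracted background, forced all arrays to one distribution (quantile normalisation) and combined the probes of each set. Per the submitters' notes this was done with affy, its version and the genome build being not given in the sources used here. This makes all differences relative to the other genes. The number of arrays limits the precision, and array medians lay between 5.25 and 5.31.

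The 62 control probe sets were left out. Gene names came from the array annotation, updated by gene ID to RefSeq GRCh38.p14: of 54613 other probe sets 41091 had 1 gene (41019 matched, 72 kept the array's name), 1801 several and 11721 none. The probe set with the highest mean over the 12 arrays stood for its gene. A model fitted with limma 3.58.1 (R 4.3.3; lmFit, eBayes, 6 group means, 6 residual and 3.02 prior degrees of freedom) gave differences, SEs (median 0.12) and p-values, adjusted by Benjamini-Hochberg over the 18677 tested probe sets. The script was tested on simulated data. The members and lists were chosen with earlier results of these data known. Genes were named when called and among the 15 largest negative or 12 largest positive differences, the first 4 called of a list, the first 6 of either leading chromosome arm, the 8 most opposite between clones, or fixed in advance (CD99, CD99L2, RUNX2, SP7, ALPL, COL1A1, AKT1, SMAD2, SMAD4, CDH2, SNAI1, ID1). List medians are shown beside the median of all genes, with no set test. Centromere positions behind the arms were rounded. Clone numbers 22 and 36 mark the same line on each day, and the clones' differences correlated between days across probe sets (r = 0.55, 0.31 and 0.61, against -0.03, 0.23 and -0.04 for the parental numbers). The labels name no batch. Other filters, scalings, tests and left-out arrays were tried as alternatives.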

Additional observations from a re-analysis of the deposited data

Results flagged for a closer look

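For DLX3 every clone array lay below both SaOS-2 arrays at day 0, and above both at day 14, where the difference between the lines was 0.29. For ID1 the clones likewise lay below SaOS-2 at day 0 and above it at day 7, where the difference was 0.15, but at day 14 it was -0.81 and called lower. The change of the line difference was tested as an interaction and did not pass for either (limma adjusted p = 0.328 for DLX3 and 0.868 for ID1).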

How the results depend on the processing

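The count of 175 probe sets and 72 genes was 97 and 43 with a signal floor of 200, 281 probe sets without a floor, 15 and 7 with the arrays of day 0 alone, and 11 and 5 with a test against 1.5-fold itself (4 of them called on both later days, against 34). With 1 array left out the counts ran from 7 to 245 probe sets, from 2 to 98 genes and, for genes called on all 3 days, from 2 to 42. Without either SaOS-2 array of day 7 or of day 14, 40 genes were called, all among the 72. Quantile normalisation of the tested probe sets gave 131 probe sets, 88.5% of them lower, against 94.9%. At day 0 the lines share no replicate numbers (22 and 36 against 1 and 2), so a paired fit within day 0 was not possible, and with line and number as a replicate block across days 178 probe sets and 72 genes were called, 33 on all 3 days (70 of the 72 genes shared), with consensus correlation 0.18. Over 57 named genes and their alternatives, 1351 of 1623 values were counted as unchanged and 270 lost the call. Another 2 were stronger, MYH3 without wt22 (1.81) and ID1 without wt36 (-0.67). Only the 43 called genes among the 57 could lose a call. Of these 43, 0 changed direction, and 3 kept the call in every alternative other than those with 1 array left out. For genes that were not called, a change of sign was also counted as unchanged. HSPB1, for example, had -0.88 over both clones and lay 1.18 above the parental mean in wt22. The cause of these changes was not tested. Calls required 1.5-fold, so smaller differences were not counted: 209 probe sets had an adjusted p of at most 0.05 and 175 of them were called.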
